A study of Homo sapiens with 5 samples.

Results

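The 10 genes described here encode the main heat shock chaperones of the cell: the HSP70 genes HSPA1A, HSPA1B and HSPA8, the HSP90 genes HSP90AA1 and HSP90AB1, the HSP70 helpers DNAJB1, HSPH1 and BAG3, the small heat shock gene HSPB1 and the chaperonin gene HSPD1. They were chosen by name and not by any value, though with earlier results of these data known. They make up 10 of the 64837 gene entries of the count files. At their entries on the primary chromosomes, 8 of the 10 passed the filter on low counts and were among the 20360 genes tested, while HSPA1A and HSPA1B had 0 counts there in every library and were followed through 4 further entries of the same names on haplotype sequences. All but HSPD1 act mainly in the cytosol and nucleus; the HSPD1 protein works in mitochondria.

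The cells were NCI-H209, an established line of small cell lung cancer (SCLC). In 3 control libraries the parental cells had grown alone, labelled untreated. In 2 co-cultured libraries they had shared medium for 24 h with human brain microvascular endothelial cells (HBMECs) held in a Transwell insert, a porous support that keeps the cell types apart. Both groups of tumour cells grew in RPMI-1640 with 10% fetal bovine serum. The paper's HBMEC medium also held 10% Nu-serum, and the paper does not state which medium the inserts held during co-culture. What part this had in the results was not tested. RNA was depleted of rRNA and sequenced as strand-directional libraries. The comparison asks how the tumour cells' transcripts changed under the influence of the HBMECs. All libraries come from 1 cell line, no library of HBMECs alone was analysed here, and whether control wells held an empty insert was not given in the sources used here. Nothing in them says that replicates were separate cultures, so p-values measure the spread between these libraries, which may be technical.

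Chaperones bind proteins that are not yet folded or have come unfolded. HSP70 proteins hold short stretches of a client in a cycle driven by ATP, in which J-domain proteins such as DNAJB1 deliver the client and start the ATP step, and exchange factors such as HSPH1 and BAG3 release the nucleotide. HSP90 receives part-folded clients, among them many kinases and steroid receptors, and small heat shock proteins hold clients without ATP. HSPA8 and HSP90AB1 are made at all times, HSPA1A, HSPA1B, DNAJB1 and HSPA6 rise sharply on heat or protein damage, and heat shock factor 1 drives that rise by binding repeated GAA units, the heat shock element, in their promoters.

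The libraries held 15457071 to 19157348 counts on genes of the expected strand, and 92.3% to 93.1% of the counts lay on that strand. At this depth a count of 3 was 0.157 to 0.194 CPM (counts scaled to the library total). Unmapped reads made up 8.13% to 8.48% of the reads in control and 15.9% and 16.8% in the co-cultured libraries, and the part of this difference in the results was not tested. Of 12 endothelial marker genes, 8 were tested and 1, ESAM, was higher, from 3, 4 and 6 counts in control to 21 and 14. Summed over the 12 markers the level was 9.57 to 19.3 CPM in control and 12.9 and 13.1 CPM after co-culture. PECAM1 and CDH5 had at most 18 and 11 counts in any library. VWF had more, with 159, 75 and 87 counts in control and 87 and 90 after co-culture. ERG had 70, 64 and 55 counts in control and 52 and 41 after co-culture. Of 10 SCLC markers 9 were tested, with SYP at 56.3 to 65.3 CPM in control and 90.2 and 86.2 CPM after co-culture. CHGA, also on that list, had at most 1 count.

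The promoter windows of the genes are shown for their units of the heat shock element. RefSeq windows from 250 bases before to 50 bases after each start site (GRCh38.p14) were found for all 10 genes, some with several start sites. They were searched on both strands for 3 alternating units, GAANNTTCNNGAA or TTCNNGAANNTTC, and for 2 units, GAANNTTC or TTCNNGAA, which the longer motif contains. Of the 10 genes, 4 held the motif of 3 units, against 0.608% of the 27305 genes with a window, and 8 held the motif of 2 units, against 16.2% of them. A gene was counted if any of its windows held the motif. No match was found for HSPH1 and BAG3, which says only that these letters are not in these windows. Below, 5′ to 3′ on the gene's own strand, the capitals mark the GAA and TTC units.
HSPA8: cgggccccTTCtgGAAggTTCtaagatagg
HSP90AA1: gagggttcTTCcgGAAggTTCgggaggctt
HSP90AB1: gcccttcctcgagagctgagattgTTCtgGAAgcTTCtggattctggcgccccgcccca
HSPD1: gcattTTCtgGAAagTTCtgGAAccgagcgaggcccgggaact
DNAJB1: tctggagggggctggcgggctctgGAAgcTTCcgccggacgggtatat
HSPB1: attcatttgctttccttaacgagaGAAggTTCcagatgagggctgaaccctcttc

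The HSPA8 stretch (chr11:123062170-123062199, minus strand) began 63 bases before a start site and the HSP90AA1 stretch (chr14:102087111-102087140, minus strand) 96 bases before one. Both also overlapped an exon of another transcript of their gene. The HSP90AB1 stretch (chr6:44247807-44247865, plus strand), the HSPD1 stretch (chr2:197500048-197500090, minus strand) and the DNAJB1 stretch (chr19:14518421-14518468, minus strand) lay in introns of transcripts with an earlier start, and the HSPB1 stretch (chr7:76302467-76302521, plus strand) lay before the gene. Of the 4 genes with the motif of 3 units, HSPA8 and HSP90AB1 were lower in the comparison below, and HSP90AA1 and HSPD1 did not pass the test.

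HSPA1A and HSPA1B are neighbours on chromosome 6 (chr6:31815464-31817946 and chr6:31827735-31830255, GRCh38, plus strand) and encode the heat-inducible HSP70. Their coding sequences of 1923 bases differed at 4 positions, an identity of 99.8%, and shared an unbroken run of 1709 bases. Of all stretches of 100 bases in the HSPA1A transcripts 67.3% also occurred in HSPA1B, so many reads of these genes cannot be placed in 1 of them. Bases 1831 to 1920 of the coding sequences hold 3 of the 4 differences, in capitals below.
HSPA1A: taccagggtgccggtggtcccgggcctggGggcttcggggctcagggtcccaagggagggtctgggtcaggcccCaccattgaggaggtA
HSPA1B: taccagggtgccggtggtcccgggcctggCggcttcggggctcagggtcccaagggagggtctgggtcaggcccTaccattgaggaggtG

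Among the 8 genes tested, co-cultured cells had less of 2 abundant constitutive chaperone transcripts, HSPA8 and HSP90AB1, and more of 2 less abundant ones, HSPB1 and BAG3. The lower genes fell by 0.72 and 0.43 on the log2 scale and the higher ones rose by 0.85 and 1.51. The other 4, HSP90AA1, DNAJB1, HSPH1 and HSPD1, did not pass edgeR's quasi-likelihood test at an adjusted p under 0.05. The 4 calls among 8 genes stand beside 33.4% of all genes tested, the 2 higher ones beside 18.4% and the 2 lower ones beside 15.0%. The groups did not overlap for 5 of the 8 genes, beside 59.4% of all genes tested. With 8 genes these shares lie too near those of all genes to be read as a result about chaperones. The median log2 fold change was -0.05 over the 8 genes and -0.03 over all genes tested. By the DEG criterion used here, an absolute log2 fold change over 1 and an unadjusted p under 0.05, BAG3 was the 1 gene called, beside 10.5% of all genes.

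**Figure D1:**
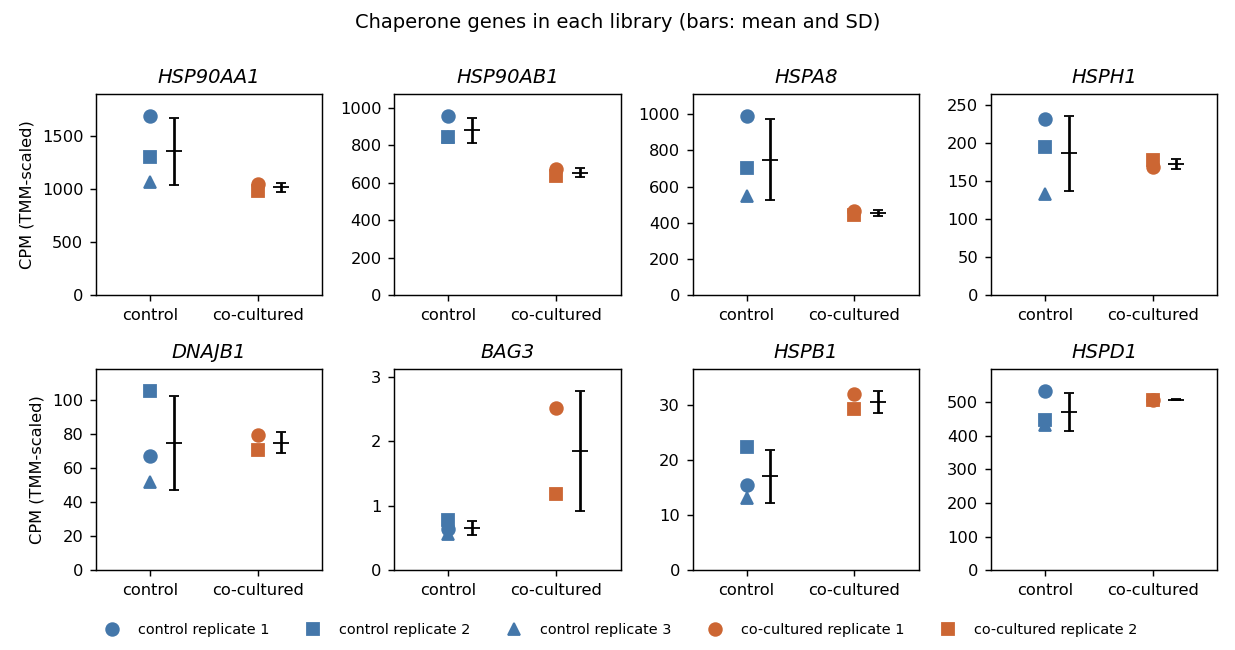
TMM-scaled CPM of the 8 tested chaperone genes (y axes, each from 0) in the 3 control libraries (blue) and the 2 co-cultured libraries (orange), with replicate numbers by marker shape and the mean and SD in black beside them. The co-cultured libraries lie below all control libraries for HSP90AA1, HSP90AB1 and HSPA8 and above them for HSPB1 and BAG3, and the control libraries are spread more widely than the co-cultured ones for every gene but BAG3.

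HSPA8 (chr11:123057489-123063230, minus strand) encodes the constitutive HSP70, HSC70. It was at 992, 705 and 550 CPM in control replicates 1, 2 and 3 and at 468 and 442 CPM in co-cultured replicates 1 and 2. The co-cultured libraries lay below every control library, but control replicate 3 lay nearer to them than to control replicate 1. The control mean was 749 ± 224 CPM (SD, n = 3) and the co-cultured mean was 455 ± 18.9 CPM (SD, n = 2), which gave -0.72 on the log2 scale (SE 0.20, edgeR adjusted p = 0.0238). Without control replicate 1 the value was -0.46, still past the threshold. The DESeq2 test did not call it (-0.70, adjusted p = 0.0983).

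HSP90AB1 (chr6:44246166-44253888, plus strand) encodes HSP90-beta, the constitutive cytosolic HSP90. Its levels were 959, 844 and 843 CPM in control and 672 and 636 CPM after co-culture. Control replicates 2 and 3 were level with each other here, and both co-cultured libraries lay below them. The log2 fold change was -0.43 (SE 0.092, edgeR adjusted p = 0.00694), and the highest control was 1.14 times the lowest.

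HSP90AA1 (chr14:102080738-102139699, minus strand) encodes HSP90-alpha, the more heat-inducible form. It was at 1693, 1300 and 1073 CPM in control and at 1047 and 986 CPM after co-culture. The groups did not overlap, yet co-cultured replicate 1 was close to control replicate 3. The log2 fold change of -0.42 (SE 0.16) had an edgeR adjusted p of 0.0812. Leaving out control replicate 1 gave -0.22 (edgeR adjusted p = 0.0289) and leaving out control replicate 3 gave -0.55 (adjusted p = 0.0193). Both were past the threshold, with values on either side of the full one. Without control replicate 2 the value was -0.44 and not past the threshold (adjusted p = 0.119). Without co-cultured replicates 1 and 2 it was -0.45 and -0.37. The ratio of HSP90AA1 to HSP90AB1 counts within a library was 1.77, 1.54 and 1.27 in control and 1.56 and 1.55 after co-culture, and the co-cultured values fell inside the control range. The coding sequences of these paralogs were 75.1% identical over their most alike transcripts.

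In control, HSP90AA1, HSP90AB1 and HSPA8 together took 0.358%, 0.298% and 0.252% of all gene counts, and after co-culture 0.212% and 0.202%.

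The inducible HSP70 genes were counted on other entries. The primary entries of HSPA1A and HSPA1B had 0 counts in every library, while the haplotype entries did have counts. The HSPA1A entry ENSG00000215328.6 had 30, 60 and 15 counts in control and 33 and 17 after co-culture. The HSPA1B entry ENSG00000212866.6 had 35, 74 and 36 counts in control and 49 and 21 after co-culture, and the HSPA1B entry ENSG00000224501.5 had 64, 90 and 35, then 37 and 20. The remaining HSPA1B entry, ENSG00000232804.5, had 1 to 5 counts and was not tested. Control replicate 2 was the highest library at each of the 3 tested entries.

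Summed over all entries of both genes, the inducible HSP70 had 132, 228 and 87 counts in control and 124 and 62 after co-culture, or 7.02, 12.6 and 4.45 CPM against 6.78 and 4.10 CPM. The groups overlapped, and the log2 fold change was -0.54 (edgeR adjusted p = 0.321). Without control replicate 2 it was -0.06, and with the replicate number as a block it was -0.81 (adjusted p = 0.0415). This sum was 0.708%, 1.79% and 0.810% of the HSPA8 counts in control and 1.45% and 0.927% after co-culture. How many reads of these genes were left uncounted because they fit several entries was not tested, so their levels are uncertain. Such zeros were not particular to them: 110 gene names had 0 counts at the primary entry in every library and counts on another entry of the same name.

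DNAJB1 (chr19:14514770-14529770, minus strand) encodes the J-domain protein that works with inducible HSP70 after heat. It was at 67.2, 105 and 51.8 CPM in control and at 79.4 and 70.5 CPM after co-culture. Control replicate 2 was the highest of all libraries and control replicate 3 the lowest, with both co-cultured libraries between them. The log2 fold change was 0.005 (SE 0.24, edgeR adjusted p = 0.990) with all libraries. Without control replicate 2 it was 0.34 (adjusted p = 0.0911), and under upper-quartile scaling its sign turned, at -0.08. On the opposite strand this gene overlaps TECR and MIR639, and counts of that strand at DNAJB1 were 4.27% to 12% of both strands together, the highest share among the 8 tested genes.

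HSPH1 (chr13:31134974-31162388, minus strand) encodes HSP110, an exchange factor for HSP70 that also holds clients. Its levels were 231, 195 and 133 CPM in control and 168 and 177 CPM after co-culture. The co-cultured libraries lay inside the control range, and the log2 fold change was -0.11 (SE 0.19, edgeR adjusted p = 0.685).

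BAG3 (chr10:119651370-119677819, plus strand) encodes an exchange factor that links HSP70 and small heat shock proteins to autophagy. It was the least abundant of the 8 genes, with 12, 14 and 11 counts in control and 46 and 18 after co-culture, or 0.638, 0.774 and 0.563 CPM against 2.51 and 1.19 CPM. Both co-cultured libraries were above all controls, but co-cultured replicate 1 was 2.12 times replicate 2. The log2 fold change was 1.51 (SE 0.40, edgeR adjusted p = 0.0177). Without co-cultured replicate 1 it was 0.86 (adjusted p = 0.294), so the call rests on that library.

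HSPB1 (chr7:76302544-76304295, plus strand) encodes HSP27, a small heat shock protein that holds unfolding clients and binds the actin skeleton. It was at 15.6, 22.5 and 13.2 CPM in control and at 32.1 and 29.3 CPM after co-culture. Every co-cultured value was above control replicate 2, the highest control. The control mean of 17.1 ± 4.82 CPM (SD, n = 3) stood against a co-cultured mean of 30.7 ± 1.99 CPM (SD, n = 2), with a log2 difference of 0.85 (SE 0.19, edgeR adjusted p = 0.00881).

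HSPD1 (chr2:197486581-197516737, minus strand) encodes HSP60, the chaperonin of the mitochondrial matrix. Its levels were 534, 445 and 432 CPM in control and 507 and 505 CPM after co-culture. Control replicate 1 was above both co-cultured libraries and the other controls below them. The log2 fold change was 0.11 (SE 0.10, edgeR adjusted p = 0.460), and without control replicate 1 it was 0.21 (adjusted p = 0.00489). HSPE1, which encodes its partner HSP10 and shares the start region on the other strand, was at 35.7, 27.7 and 27.1 CPM in control and 24.6 and 27.1 CPM after co-culture (log2 fold change -0.22, SE 0.14, edgeR adjusted p = 0.237). The ratio of HSPD1 to HSPE1 counts was 14.9, 16.1 and 15.9 in control and 20.6 and 18.6 after co-culture, without overlap between the groups. In the levels of single genes the groups did not overlap for 59.4% of all genes tested, and no such share was computed for ratios. The groups did overlap in the ratios of HSP90AA1 to HSP90AB1 and of HSPA1A plus HSPA1B to HSPA8.

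**Figure D2:**
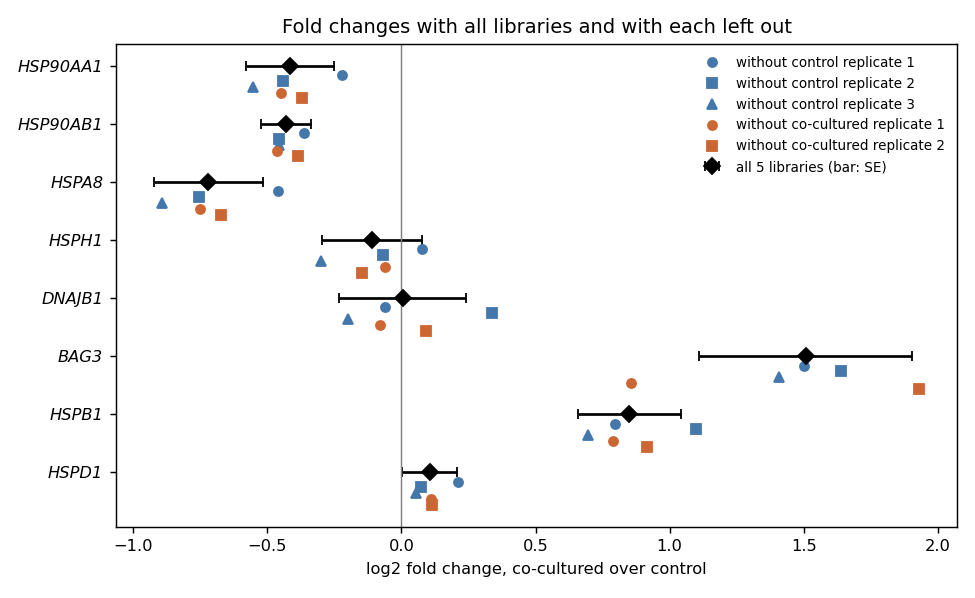
Log2 fold changes, co-cultured against control (x axis), for the tested chaperone genes (y axis), from all 5 libraries (black diamonds, bar the SE) and after dropping single libraries (blue for a control library, orange for a co-cultured one). HSPA8, HSP90AA1 and HSP90AB1 stay below 0 and HSPB1, BAG3 and HSPD1 above 0 in all these fits, while HSPH1 runs from -0.30 to 0.08 and DNAJB1 from -0.20 to 0.34.

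Leaving out either co-cultured library removed the calls of HSPA8, HSP90AB1 and HSPB1, whose edgeR adjusted p then ran from 0.0530 to 0.166, with log2 fold changes of -0.75 and -0.67 for HSPA8, -0.46 and -0.39 for HSP90AB1, and 0.79 and 0.92 for HSPB1. The count of all genes called also fell, from 6809 to 2734 without co-cultured replicate 1 and 3023 without replicate 2.

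Per kb of exon, HSP90AB1 led in control with 296 ± 22.3 CPM per kb (SD, n = 3), before HSP90AA1 with 258 ± 59.8, HSPA8 with 155 ± 46.2 and HSPD1 with 111 ± 13.1 CPM per kb. The control ranges of neighbours in this order overlapped. HSPH1 with 22.2 ± 5.89 and DNAJB1 with 20.4 ± 7.51 CPM per kb also overlapped, DNAJB1 and HSPB1 with 10.4 ± 2.95 did not, and BAG3 was last with 0.240 ± 0.0389 CPM per kb. Among 13697 protein-coding genes tested, the leading 4 ranked 49, 59, 115 and 169, and BAG3 ranked 12803. After co-culture HSPD1, with 119 CPM per kb, stood before HSPA8, with 93.9 CPM per kb, and the 2 libraries did not overlap between them. The length counts every exon of every transcript of a gene, so genes with long rare transcripts appear lower.

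The control libraries differed from each other in these genes. Control replicate 3 was the lowest control for all 8 tested genes. Control replicate 1 was the highest for HSPA8, HSP90AA1, HSP90AB1, HSPH1 and HSPD1, and control replicate 2 for DNAJB1, HSPB1 and BAG3. The highest control was 1.8 times the lowest for HSPA8, 1.73 times for HSPH1, 1.71 times for HSPB1, 1.58 times for HSP90AA1 and 2.03 times for DNAJB1. The spread was smaller for HSP90AB1 (1.14 times), HSPD1 (1.24 times) and BAG3 (1.37 times). Over the 10535 genes tested with a mean of at least 10 CPM in control the median of that ratio was 1.16 and its 90th percentile was 1.39, and control replicate 3 was the lowest control for 28.3% of them. The 8 genes summed to 4491, 3618 and 3095 CPM in control and 2977 and 2847 CPM after co-culture.

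HSPA6, which encodes the HSP70 known as strictly stress-induced, was singled out after its values were seen. It had 4, 117 and 2 counts in control replicates 1, 2 and 3 and 13 and 10 counts after co-culture. The high value stood in control replicate 2, the same library that was highest for the HSPA1A and HSPA1B entries and the highest control for DNAJB1, HSPB1 and BAG3. The co-cultured libraries lay between the controls. With this spread the log2 fold change of -1.69 had an SE of 1.35 (edgeR adjusted p = 0.366), and what set control replicate 2 apart in these genes was not tested.

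**Figure D3:**
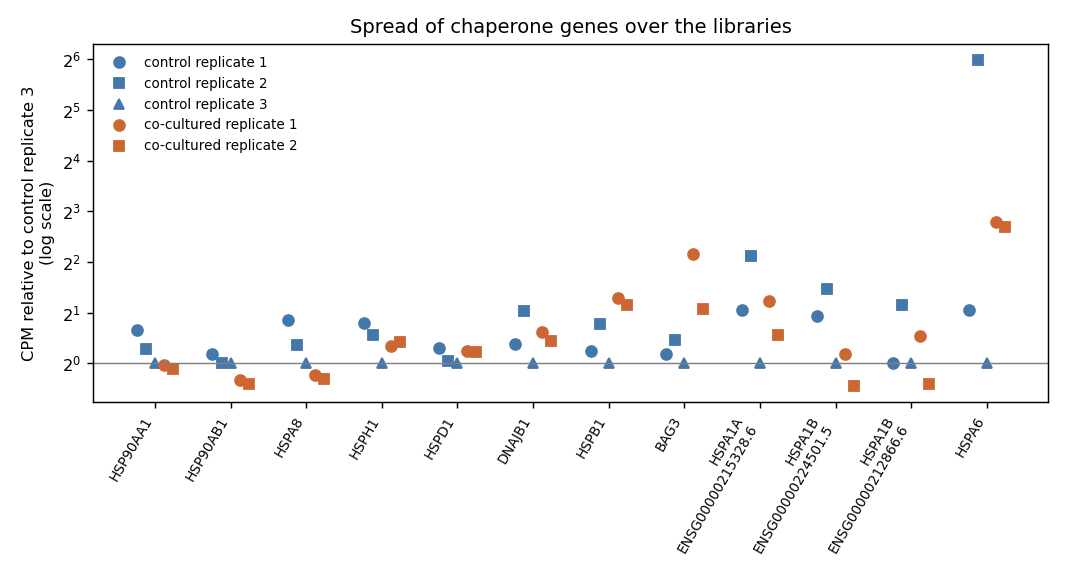
CPM of each chaperone gene or haplotype entry in each library, divided by its CPM in control replicate 3 (y axis, log scale, grey line at 1), with control libraries in blue and co-cultured ones in orange. Control replicate 2 (blue squares) is the highest control from DNAJB1 rightwards, with the farthest point at HSPA6, where control replicate 3 rests on 2 counts and control replicate 2 on 117.

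The rest of the chaperone system was followed in 11 lists of 126 different genes, chosen with earlier results of these data known. Of their 109 tested entries 42 were higher and 12 lower after co-culture, with a median log2 fold change of 0.16, beside 18.4% higher and 15.0% lower among all genes. HSPA14 counts as 2 of these entries because the annotation gives it overlapping records. Their directions differ, at 0.33 and -0.23, and its values are uncertain. The lists were not matched to all genes in expression level. Of the 20360 genes tested, 10535 had a mean of at least 10 CPM in control. The shares of the lists are therefore not read as a result about chaperones.

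Among 5 tested heat shock factors and regulators 4 were higher and 1 lower. HSF2, a heat shock factor active in development and proteotoxic stress, was at 71.5, 74.3 and 76.3 CPM in control and 90.5 and 89.0 CPM after co-culture (log2 fold change 0.28, SE 0.074, edgeR adjusted p = 0.0188). IER5, whose product promotes the activity of heat shock factor 1, went from 17.6 to 19.5 CPM in control to 33.0 and 33.1 CPM (log2 fold change 0.82, adjusted p = 0.000388). HSBP1L1, related to a binding partner of heat shock factors, was at 2.23 to 2.27 CPM in control and 4.76 and 5.22 CPM after co-culture, a rise of 1.14 on the log2 scale. HSF4 fell by 0.83 on the log2 scale, from 14.8 to 24.2 CPM in control to 12.7 and 9.97 CPM. HSF1 itself had 0 counts in 4 libraries and 1 in the other, too few to test, so its level is not known from these counts. Leaving out either co-cultured library left 2 of the higher calls and 0 lower, and upper-quartile scaling left 2 higher.

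Of the other HSP70 and HSP110 genes 7 were tested, of which 3 were higher and 1 lower. HSPA4, an HSP110 relative of HSPH1, was at 227, 182 and 177 CPM in control and 364 and 401 CPM after co-culture, a rise of 0.97 on the log2 scale (SE 0.11, edgeR adjusted p = 0.000369). HSPA4L, another HSP110 gene, rose by 0.72, while HSPH1 of the same family did not pass the test. HSPA12A, a distant HSP70 relative, fell by 0.69 on the log2 scale. The lower count was 2 without control replicate 1, with upper-quartile scaling or with a filter of 1 count in any library.

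J-domain genes other than DNAJB1 numbered 22 tested, with 5 higher, 2 lower and a median log2 fold change of -0.05. DNAJC12, which serves the aromatic amino acid hydroxylases, was at 36.6, 27.0 and 30.6 CPM in control and 84.2 and 83.9 CPM after co-culture (log2 fold change 1.42, SE 0.12, edgeR adjusted p = 7.12e-05). DNAJB2, a neuronal J-domain protein, rose by 0.82 and DNAJC5, the cysteine string protein of synaptic vesicles, by 0.61. That is 22.7% higher and 9.09% lower, near the shares of all genes. The lower count was 4 without control replicate 1 and 0 without any other single library, with DESeq2 or with the replicate block.

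Only 3 other small heat shock genes were tested, and 2 of them were higher, as HSPB1 was. HSPB8, the partner of BAG3, had 20, 12 and 15 counts in control and 35 and 52 after co-culture (log2 fold change 1.66, SE 0.36, edgeR adjusted p = 0.00697). HSPB6 had 8, 19 and 12 counts and then 28 and 26 (1.22, SE 0.40, adjusted p = 0.0422). CRYAB, the remaining one, gave -0.78 on the log2 scale (adjusted p = 0.181). These are low counts, and 8 of 12 alternative fits left 1 or neither of these calls. No gene of this list was lower by edgeR at an adjusted p under 0.05 (0 also at an unadjusted p under 0.05 and 0 with DESeq2).

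The HSP90 cochaperones had 6 higher and 3 lower genes of 22 tested. The higher count was 1 without either co-cultured library, 2 without control replicate 2, without control replicate 3 or with the replicate block, and 10 without control replicate 1, and upper-quartile scaling gave 6 lower. AHSA2P, a pseudogene related to the HSP90 activator AHSA1, fell by 0.71 on the log2 scale, from 93.8 to 103 CPM in control to 62.1 and 57.0 CPM. RPAP3, which brings HSP90 to the assembly of RNA polymerase, rose by 0.52, and TSC1, a cochaperone and growth regulator, fell by 0.49. Among 9 tested HSP70 exchange factors and partners 3 were higher and 1, BAG1, was lower. BAG2 rose by 0.59, SGTB by 0.69 and SGTA, which guides tail-anchored proteins, by 0.47. The direction of BAG1, which fell by 0.75 on the log2 scale, was opposite to that of BAG3, and without co-cultured replicate 1 no gene of this list was called lower by edgeR.

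Of the 8 subunits of TRiC, the chaperonin that folds actin and tubulin, 4 were higher and 0 lower by edgeR at the adjusted threshold, and the list's median was 0.28. CCT3 was lower at an unadjusted p under 0.05, the 1 subunit that was, and DESeq2 called 0 lower. The higher count was 0 without co-cultured replicate 2, 2 without co-cultured replicate 1 or with the replicate block, and 7 without control replicate 1. CCT5 rose by 0.54, CCT4 by 0.43 and CCT8 by 0.31 on the log2 scale. Prefoldin, which hands clients to TRiC, had 2 of 5 tested subunits higher and 1 lower: PFDN2 rose by 0.64 and VBP1 by 0.36, while PFDN5 fell by 0.45 on the log2 scale. The higher count was 1 without control replicate 2 or either co-cultured library, and the lower count was 0 without co-cultured replicate 1.

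Outside the cytosol, 4 of 10 tested mitochondrial genes were higher. None was lower by edgeR (0 also at an unadjusted p under 0.05 and 0 with DESeq2), and their median was 0.33. Leaving out either co-cultured library left 2 higher. HSPA9, the mitochondrial HSP70, was at 482, 415 and 396 CPM in control and 700 and 727 CPM after co-culture (log2 fold change 0.73, SE 0.098, edgeR adjusted p = 0.000711). The proteases LONP1 and CLPP rose by 0.96 and 0.48, whereas HSPD1 and HSPE1 did not pass the test. In the endoplasmic reticulum 8 of 13 tested genes were higher and 1 lower (median 0.35). The higher count was 4 and 5 without co-cultured replicates 1 and 2 and 5 with the replicate block, and the lower count was 0 in each of these. HSPA5, the HSP70 of that compartment, rose by 0.54 from 258 to 292 CPM in control to 413 and 389 CPM, DNAJB9 by 0.83 and DNAJC3 by 0.64. HSP90B1, its HSP90, fell by 0.35 on the log2 scale.

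Of 19 tested further heat-induced genes, a list that shares members with those above, 8 were higher and 2 lower (median 0.13). The 3 with the smallest p were HSPA4, HSPA4L and IER5, all described above, while the ubiquitin gene UBB fell by 0.72 on the log2 scale. The higher count was 4 and 3 without co-cultured replicates 1 and 2, and 5 without control replicate 3, with upper-quartile scaling or with the replicate block, and the lower count was 1 without either co-cultured library.

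**Figure D4:**
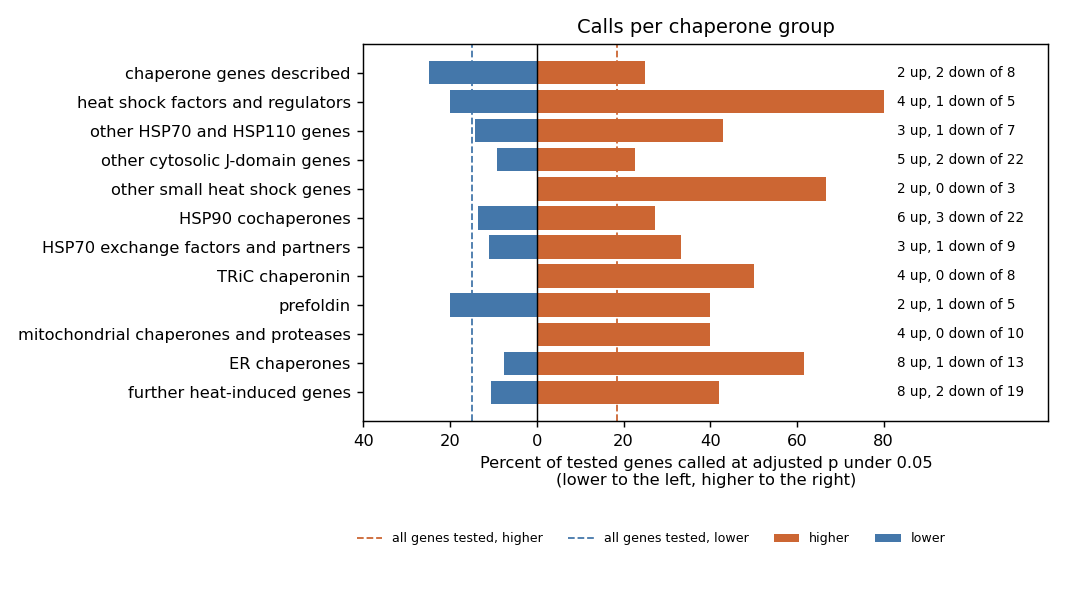
Percent of the tested genes of each chaperone group called higher (orange, to the right) or lower (blue, to the left) after co-culture at an edgeR adjusted p under 0.05, with the counts at the right and the shares over all genes tested as dashed lines (18.4% and 15.0%). The 8 chaperone genes described here are split 2 to 2, and the endoplasmic reticulum, mitochondrial and TRiC groups have 1, 0 and 0 lower calls.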

How the data were processed

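RNA-Seq counts of 3 control and 2 co-cultured NCI-H209 libraries were used. The authors deposited raw gene counts with STAR's 3 strand columns, and per the labels' processing notes used CASAVA 1.8, STAR 2.6.1b, DESeq2 and GRCh38. The column of the expected strand was taken. A deposited comparison table gave gene names only; its fold changes, means and p-values were not used. Coordinates came from GENCODE 29, whose 58780 genes left 6057 entries on other sequences, of which 5518 had no name.

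Genes kept by filterByExpr (20360) were TMM-scaled and compared with edgeR 4.0.16 (R 4.3.3) by the quasi-likelihood test, all 5 libraries, no covariate, Benjamini-Hochberg adjustment, threshold 0.05. SE is the log2 fold change over the square root of F. On data simulated with 200 changed genes, 19879 genes passed the filter, and 158 of the changed genes and 13 others were called. The simulation changed far fewer genes than the 6809 called in the comparison, so its rates need not carry over. The smallest exact permutation p of 3 against 2 is 0.1 one-sided and 0.2 two-sided, so the fit across all genes was used. Genes and lists were chosen with earlier results of these data known. Named were all 10 genes, HSF1 and HSF2. From each list, up to 3 called genes with the smallest p and a mean of at least 1 CPM were named. CHGA, ESAM, PECAM1, CDH5, VWF, ERG, HSPA6, HSPA14, HSPE1, CRYAB, BAG1, HSP90B1 and UBB were added after their values were seen. The floor of 3 counts covers counting error only, while the SE also takes in the spread between libraries. Alternatives were other scalings, DESeq2 1.42.0, other filters, unstranded counts, a replicate block, each library left out, and haplotype or pseudogene entries summed.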

Additional observations from a re-analysis of the deposited data

How the results depend on the processing

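Upper-quartile scaling moved the share of higher genes among all calls from 55.1% to 43.9%. HSPA8 lost its call with DESeq2 (-0.70). HSP90AA1 gained one with upper-quartile scaling (-0.49), DESeq2 (-0.40), a filter of 1 count in any library (-0.41) and the replicate block (-0.55). It gained none with median-ratio scaling (-0.40), unstranded counts (-0.36) or a filter of 10 counts in every library (-0.43). DNAJB1 turned with upper-quartile scaling (-0.077), a filter of 10 counts in every library (-0.0071) and the replicate block (-0.17). With the filter of 1 count and the replicate block, calls were gained by the HSPA1B entry ENSG00000224501.5 (-0.99 and -1.29) and by the HSPA1A and HSPA1B sum (-0.54 and -0.81). The cause was not tested.

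With each library left out, log2 fold changes ran from -0.89 to -0.46 for HSPA8, -0.55 to -0.22 for HSP90AA1, -0.46 to -0.36 for HSP90AB1, -0.20 to 0.34 for DNAJB1, -0.30 to 0.077 for HSPH1, 0.69 to 1.10 for HSPB1, 0.053 to 0.21 for HSPD1 and 0.86 to 1.93 for BAG3. They ran from -0.73 to 0.33 for the HSPA1A entry, -0.89 to 0.16 and -1.34 to -0.61 for the HSPA1B entries ENSG00000212866.6 and ENSG00000224501.5, and -0.96 to -0.06 for the sum. Calls among the 8 genes ran from 0 to 3 higher and 0 to 3 lower, those of the DEG criterion from 0 to 2, those over all genes from 1749 to 5295 higher and 985 to 4602 lower, and those of the chaperone lists from 20 to 55 higher and 4 to 17 lower.

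Whether replicate numbers pair the libraries was not settled. Deviations from the group means correlated at -0.11 for number 1 and -0.07 for number 2, over 2 pairs. With 2 co-cultured libraries their deviations mirror each other, so these correlations are not independent and cannot decide it. The replicate block called 2 of the 8 genes higher and 3 lower, and 2771 higher and 2053 lower of all genes. It leaves control replicate 3 without a partner. Summing pseudogene entries, at most 0.92% of a gene's counts in a library, changed no call among the 6 genes that have them; for HSP90AA1 and HSP90AB1 this alternative was added after seeing the data. Low counts limit BAG3 and the HSPA1A and HSPA1B entries most.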

Other observations

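Of all chaperone genes followed, 8 had 0 counts at the primary entry in all 5 libraries: DNAJA3, HSPA1A, HSPA1B, HSPA1L, HSPA7, HSPB3, HYOU1 and PFDN6. TRAP1 and CHORDC1 had at most 1 count in any library. Their levels are not known from these counts.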
